A study of Mus musculus with 6 samples.

Results

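TRBV15 (Trbv15) and TRBV26 (Trbv26) are variable (V) segments of the mouse T-cell receptor beta locus, known in the older nomenclature as Tcrb-V12 and Tcrb-V3. Their rearrangements were chosen by the deposited V segment name alone, and each segment carried a single name. TRBV15 had 169 listed rearrangements with 293 templates and TRBV26 had 164 with 284 templates, together 333 of 4409 listed rearrangements and 577 of 7043 templates. Genomic DNA came from splenic Tfr (T follicular regulatory) cells of 3 Foxp3GFP mice. Such cells express the transcription factor Foxp3 and restrain antibody responses from within B-cell follicles, and the GFP allele is a Foxp3 reporter. Each mouse gave 1 superior and 1 inferior sample, words that the labels leave undefined, so each group had 3 samples. The labels give no strain, age, sex or treatment. The files hold receptor rearrangements and no expression, so the labelled cell type could not be checked against its markers.

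A beta chain gene is assembled by joining a D segment to a J segment and then a V segment to the DJ join, with bases lost and untemplated bases added at both joins. The V segment encodes the first complementarity-determining regions and the start of the third (CDR3), and the CDR3 runs across the joins and lies over the peptide in the receptor complex. TRBD1 lies upstream of both J clusters and TRBD2 between them, so TRBD2 is ordinarily joined only to the TRBJ2 cluster. T cells bearing Vbeta3, the product of TRBV26, are a textbook case of deletion by superantigens of endogenous retroviruses in some mouse strains.

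By RefSeq annotation of GRCm38.p6 (mm10), Trbv15 lay at chr6:41141211-41141658 (448 bases) and Trbv26 at chr6:41227525-41227913 (389 bases), both annotated as V segments. TRBV15 lay 391990 bases and TRBV26 305676 bases before the start of TRBD1, and 85867 bases separated them. A listed rearrangement was 87 bases long and ended before the last CDR3 residue. The CDR3 bases of the 3 largest clones of each segment are shown to let the V ends and joins be read beside the clone sizes given further on, from the cysteine codon to the end of the listed rearrangement, with capitals from the codon of CDR3 position 5 on. A clone, or clonotype, is here a V segment, a CDR3 nucleotide sequence and a J segment.
TRBV15 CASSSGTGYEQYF TRBJ2-7: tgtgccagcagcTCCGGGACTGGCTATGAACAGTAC
TRBV15 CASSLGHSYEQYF TRBJ2-7: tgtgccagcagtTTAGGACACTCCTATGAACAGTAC
TRBV15 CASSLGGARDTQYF TRBJ2-5: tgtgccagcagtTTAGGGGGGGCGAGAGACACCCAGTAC
TRBV26 of 15 residues with TRBJ1-3: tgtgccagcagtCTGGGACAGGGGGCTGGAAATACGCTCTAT
TRBV26 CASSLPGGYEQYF TRBJ2-7: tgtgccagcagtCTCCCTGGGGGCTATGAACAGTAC
TRBV26 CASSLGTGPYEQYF TRBJ2-7: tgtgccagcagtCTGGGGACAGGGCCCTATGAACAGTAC

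The first bases of the CDR3 were shared by the segments. Both segments opened it with TGTGCCAGCAGT, the codons of CASS, which opened 71.0% of 155 TRBV15 clonotypes and 88.9% of 153 TRBV26 clonotypes. The next codon differed. TRBV15 clonotypes continued to TGTGCCAGCAGTTTA in 29.7% and TRBV26 clonotypes to TGTGCCAGCAGTCTG in 44.4%, and both codons encode leucine. Leucine stood at CDR3 position 5 in 47.7% of TRBV15, 62.1% of TRBV26 and 17.8% of other clonotypes. TTA encoded 63.5% of these leucines in TRBV15, and CTG encoded 74.7% in TRBV26. In all, 4 CDR3 amino acid sequences occurred with both segments. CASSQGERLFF with TRBJ1-4 had the same 30 bases, TGTGCCAGCAGTCAGGGCGAAAGATTATTT, in both. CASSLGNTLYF with TRBJ2-4 differed in the leucine codon, being TGTGCCAGCAGTTTGGGAAACACCTTGTAC in TRBV15 and TGTGCCAGCAGTCTGGGAAACACCTTGTAC in TRBV26. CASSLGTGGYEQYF with TRBJ2-7 and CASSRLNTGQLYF with TRBJ2-2 were the others, and every one of these had 1 or 2 templates per segment. Of 153 TRBV15 CDR3 amino acid sequences 18 were also found with another V segment, and of 151 TRBV26 sequences 11 were.

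The counts are called templates here, although the files do not say whether they are input molecules or reads. The samples held 667 to 1855 templates, of which TRBV15 gave 27 to 77 and TRBV26 34 to 72, so a single template was a sizeable part of any within-segment share. Rearrangements with 1 template made up 61.0% of those listed for TRBV15 and 56.1% for TRBV26, against 65.3% over all segments.

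TRBV15 and TRBV26 were middling segments in these cells, and the superior and inferior shares of templates of each overlapped. TRBV15 had 4.05%, 2.92% and 4.75% of templates in the superior samples of mice 1, 2 and 3, and 5.62%, 3.70% and 3.72% in the inferior samples. TRBV26 had 5.25%, 3.47% and 3.08% in the superior and 5.26%, 3.70% and 3.77% in the inferior samples. For both segments the superior and inferior values overlapped, and mouse 1 had the highest inferior value. The inferior value was the higher in each mouse for TRBV26, though barely in mouse 1, and in mice 1 and 2 for TRBV15. The mean was 4.13% ± 0.942 (SD, n = 6) for TRBV15, rank 11 of 29 V segments, and 4.09% ± 0.933 (n = 6) for TRBV26, rank 12. The order of neighbours was within their spread. TRBV15 exceeded TRBV26 by 0.0394 ± 0.966 percentage points (2 of 6 samples higher, two-sided exact sign permutation p = 1), TRBV31 next above differed from TRBV15 by -0.19 points (TRBV15 minus TRBV31, 3 of 6 higher, exact p = 0.781), and TRBV26 exceeded TRBV13-1 next below by 0.33 points (3 of 6 higher, exact p = 0.625). The adjusted p over these 3 comparisons was 1 in each. In edgeR's quasi-likelihood fit over all V segments with 10 or more templates, the log2 ratio of superior to inferior was -0.16 (SE 0.25, adjusted p = 0.898) for TRBV15 and -0.16 (SE 0.25, adjusted p = 0.898) for TRBV26. The fit called 0 of 23 segments (0%), with 2 at an unadjusted p under 0.05, and DESeq2 called 0 with none at an unadjusted p under 0.05. The TRBV15 value was 0.052 without mouse 1.

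**Figure D1:**
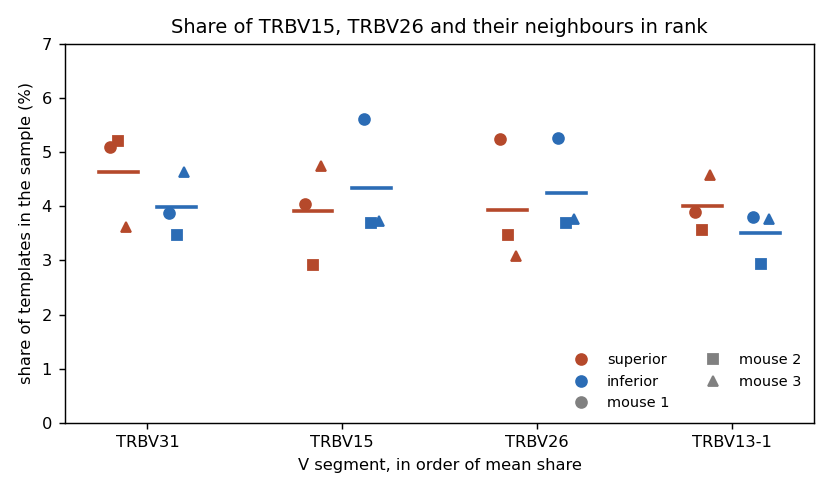
Share of templates (%, vertical axis) of TRBV15, TRBV26 and the segments next above and below them in mean share; points are samples, with colour for the group and shape for the mouse, and short lines are the means of 3 samples. The superior and inferior values of TRBV15 and of TRBV26 overlap, and the 4 segments differ by less than their spread.

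Both segments joined TRBJ2-7 most often. TRBV15 did so more often than the other V segments together in every sample, a difference that did not pass the adjusted test. TRBJ2-7 is the last J segment of the second cluster and the most used J segment of these samples. In TRBV15 it took 44.4%, 56.3% and 46.3% of templates in the superior samples of mice 1 to 3 and 35.1%, 44.1% and 31.9% in the inferior samples, with a mean of 43.0% ± 8.68 (SD, n = 6) and 119 templates. Over all V segments but TRBV15 the mean was 32.2% ± 3.92 (n = 6), and TRBV15 was higher in 6 of 6 samples. The log2 ratio of TRBV15 to the other segments was 0.39 (SE 0.10, unadjusted p = 0.0069, adjusted p = 0.185 over 188 V by J tests, edgeR with the sample as a block). The ratio was 0.65 when each clonotype was counted once and 0.34 (SE 0.27) with TMM normalization. Single segments could be higher than TRBV15. In TRBV16, TRBJ2-7 took 57.9%, 50.0% and 37.3% in the inferior samples of mice 1 to 3, and 25.6%, 43.9% and 21.4% in the superior samples. In TRBV26, TRBJ2-7 took 34.3%, 42.1% and 34.3% in the superior and 29.6%, 44.1% and 14.3% in the inferior samples, a mean of 33.1% ± 10.7 (n = 6), with a log2 ratio of -0.05 (SE 0.19, adjusted p = 0.961). The inferior sample of mouse 3 was the lowest, and TRBV26 exceeded the other segments, at 32.6% ± 3.74 (n = 6), in 4 of 6 samples.

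The next J segments differed between TRBV15 and TRBV26. TRBV15 used TRBJ2-5 with 29 templates and TRBJ2-1 with 28, and TRBV26 used TRBJ1-3 with 28 and TRBJ2-3 with 27. TRBJ2-5 in TRBV15 ranged from 0% in the inferior sample of mouse 2 to 18.5% in the superior sample of mouse 1 (log2 ratio 0.09, SE 0.39, adjusted p = 0.961), and it changed sign under several settings, as did TRBJ2-1 (log2 ratio 0.06, SE 0.37, adjusted p = 0.961). TRBJ1-3 in TRBV26 took 10.1% ± 2.90 (n = 6) against 6.99% ± 0.754 in the other segments, higher in 5 of 6 samples (log2 ratio 0.48, SE 0.28, adjusted p = 0.554). TRBJ2-3 in TRBV26 ranged from 0% to 14.3% (log2 ratio 0.78, SE 0.43, adjusted p = 0.540), higher than the other segments in 4 of 6 samples. TRBJ1-3 in TRBV15, chosen after its value was seen, had 10 templates and 3.77% ± 2.26 (n = 6) against 7.29% ± 0.740 in the other segments, lower in 5 of 6 samples (log2 ratio -1.11, SE 0.51, unadjusted p = 0.0365, adjusted p = 0.337). The adjusted edgeR test called 0 of the 23 J segments tested for TRBV15 and TRBV26, against 3 of 188 over all V segments (1.60%), all 3 in other segments. At an unadjusted p under 0.05 the counts were 2 of 23 and 24 of 188 (12.8%). DESeq2 called 0 of the 23, with 2 at an unadjusted p under 0.05. In simulated counts, changes were planted in TRBJ2-1 of TRBV15 and in TRBJ2-5 of TRBV26. Of the 2-fold changes 32.5% were called by edgeR, as were 97.5% of those of 3-fold. The simulated templates were drawn singly, without clones, and no change was planted in other J segments such as TRBJ2-7. The shares called therefore cover those J segments without clones only. By Jensen-Shannon distance of mean J use over the 6 samples, the segments nearest to TRBV15 were TRBV13-3 (0.128), TRBV19 (0.129) and TRBV3 (0.142), and those nearest to TRBV26 were TRBV19 (0.126), TRBV13-3 (0.127) and TRBV13-2 (0.143). TRBV15 and TRBV26 were 0.191 apart, rank 8 of 16 from TRBV15 and rank 9 of 16 from TRBV26.

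**Figure D2:**
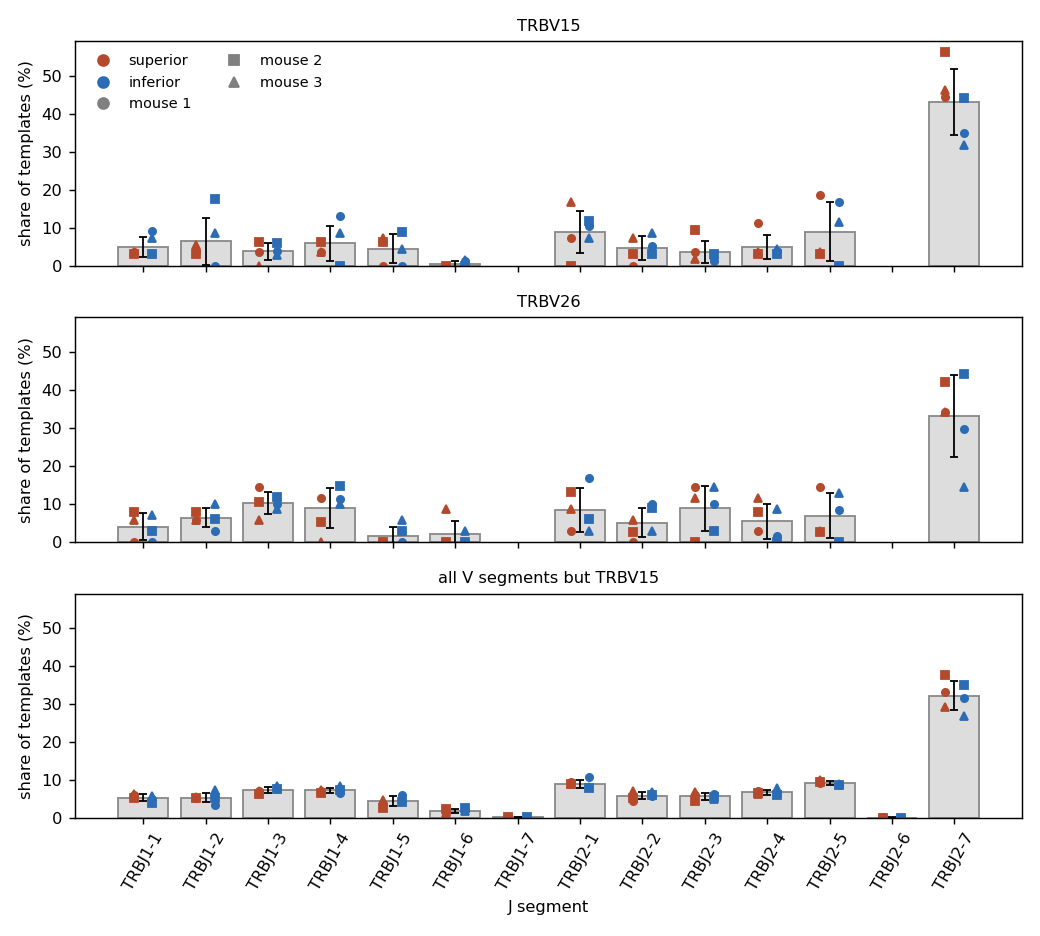
Share of templates (%, vertical axis) joined to each J segment in TRBV15, in TRBV26 and in all V segments but TRBV15; bars are means and error bars SDs of 6 samples, and points are samples, with colour for the group and shape for the mouse. TRBJ2-7 is the tallest bar in all 3 panels, and its mean is 43.0% in TRBV15, 33.1% in TRBV26 and 32.2% in the other segments.

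TRBV26 carried TRBD2 less often than the other V segments together, a difference that did not pass the adjusted test and that other segments shared. Of TRBV26 templates with a resolved D segment, TRBD2 made up 40.6%, 48.0% and 25.0% in the superior samples of mice 1 to 3 and 23.9%, 23.3% and 30.2% in the inferior samples. The mean of 31.8% ± 10.2 (SD, n = 6) lay below the 44.8% ± 4.18 of the other segments, lower in 5 of 6 samples (difference -12.9 ± 10.4 points, two-sided exact sign permutation p = 0.0625, adjusted p = 0.125 over 14 tests). It was rank 16 of 17 V segments with 100 or more templates, below TRBV29 (-11.2 points) and TRBV20 (-9.29 points) and above TRBV3 (-13.5 points, lower in 6 of 6 samples). The exception was the superior sample of mouse 2, where 1 clone had 8 of the 12 TRBD2 templates among 25 with a resolved D segment. With each clonotype counted once the difference was -15.8 points and lower in 6 of 6 samples (exact p = 0.03125, the smallest that 6 samples can give, adjusted p = 0.0938). The 6 samples came from 3 mice and are not 6 independent animals. Without clones of 5 or more templates, a choice made after seeing the data, the TRBD2 share in TRBV26 was 22.7%, 23.5% and 25.0% in the superior and 24.0%, 23.3% and 30.2% in the inferior samples, where the V segments other than TRBV15 and TRBV26 had 41.2% to 51.5%. The ranges did not overlap.

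By J cluster, TRBV26 templates with TRBJ2 carried TRBD1 in 47.9% and TRBD2 in 31.6%, whereas TRBV15 templates with TRBJ2 carried TRBD1 in 36.4% and TRBD2 in 42.5%, and those of the other V segments carried 34.3% and 49.8%. Templates with TRBJ1 were mostly TRBD1 in all classes, at 70.9% in TRBV15, 71.0% in TRBV26 and 69.4% in the others. TRBD2 was listed with a TRBJ1 segment in 1 of 79 TRBV15 templates, 7 of 93 TRBV26 templates and 5.50% of the others, a pair that ordinary deletional joining does not give. The D segment was unresolved in 23.8% ± 5.44 (n = 6) of TRBV15 templates, against 18.5% ± 2.12 in the others, higher in 5 of 6 samples (exact p = 0.125, adjusted p = 0.194). In TRBV26 it was unresolved in 20% ± 13.5, from 6.94% in the inferior sample of mouse 1 to 38.6% in the inferior sample of mouse 3.

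CDR3s of TRBV15 were shorter than those of the other V segments together in every sample, a difference that did not pass the adjusted test. Their mean length was 13.6, 13.2 and 13.3 residues in the superior samples of mice 1 to 3 and 12.9, 13.5 and 13.4 in the inferior samples, and all 6 lay below the other segments of the same sample, which ranged from 13.7 to 13.9. The difference was -0.415 ± 0.204 residues (SD, n = 6, exact sign permutation p = 0.03125, adjusted p = 0.0875), rank 16 of 17 segments, and -0.312 within J segments. Its CDR3s spanned 11 to 17 residues, with 38.1% of templates at 13 residues and 30.4% at 14, where the other segments (TRBV15 and TRBV26 left out) had 23.7% and 29.1%. At 15 residues TRBV15 had 7.61% of templates and the others 21.5%. TRBV26 was nearer to the others, at 13.6 ± 0.156 residues against 13.7 ± 0.0858 (difference -0.171 ± 0.223, shorter in 5 of 6 samples, exact p = 0.0938, adjusted p = 0.164), with 31.3% of templates at 13 residues and 17.3% at 15.

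TRBV26 CDR3s were poor in glycine, with the lowest difference from the other segments of the 17 V segments. They held 1.37, 1.13 and 0.914 glycines per CDR3 in the superior samples of mice 1 to 3 and 1.33, 1.18 and 1.06 in the inferior samples, each below the other segments of its sample, which ranged from 1.51 to 1.62. The mean was 1.16 ± 0.171 (SD, n = 6) against 1.56 ± 0.0427, a difference of -0.397 ± 0.145 (exact p = 0.03125, adjusted p = 0.0875). Glycine, the smallest residue, is often encoded by the guanine-rich D segments and can also come from the V end. Counted from position 6 on, which leaves out the first 5 residues, the difference was -0.177 ± 0.120 and still lower in 6 of 6 samples (exact p = 0.03125, adjusted p = 0.125 over 4 tests). At position 6 glycine stood in 20.9% of TRBV26, 38.1% of TRBV15 and 24.2% of other clonotypes, and at position 7 in 28.8%, 41.9% and 38.9%. Serine stood at position 6 in 20.9% of TRBV26, 2.58% of TRBV15 and 3.43% of other clonotypes. Whether the V end encodes residues at position 6 was not tested. TRBV15 had 1.41 ± 0.0658 glycines per CDR3 against 1.55 ± 0.0460 (lower in 6 of 6 samples, exact p = 0.03125, adjusted p = 0.0875). Its rank was 7 of 17 from the highest, and of the 17 segments only TRBV13-2 and TRBV20 exceeded their own others, by 1.07 and 0.784 glycines. From position 6 on TRBV15 exceeded the others by 0.0536, higher in 5 of 6 samples, so its direction turned when the first 5 residues were left out.

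The net charge of the CDR3, counted as lysine and arginine minus aspartate and glutamate, was negative on average in every sample, and less so in both segments than in the other segments together. By this difference TRBV26 was rank 4 and TRBV15 rank 10 of 17 from the highest, and the lowest was TRBV13-2 at -0.573. In TRBV26 it was -0.571, -0.711 and -0.629 in the superior samples of mice 1 to 3 and -0.514, -0.324 and -0.257 in the inferior samples, against -0.844 to -0.761 in the other segments. The difference was 0.290 ± 0.186 (SD, n = 6, higher in 6 of 6 samples, exact p = 0.03125, adjusted p = 0.0875), and 0.123 ± 0.172 from position 6 on, higher in 4 of 6 samples. In TRBV15 the difference was 0.0945 ± 0.0433 (6 of 6 samples, exact p = 0.03125, adjusted p = 0.0875), and it turned to -0.0241 from position 6 on. Hydrophobic residues (F, I, L, M, V, W or Y) at position 6 or 7, in the middle of the loop, were found in 22.2% ± 3.57 of TRBV15 templates against 28.7% ± 2.47 (lower in 5 of 6 samples, exact p = 0.0625, adjusted p = 0.125). In TRBV26 the share was 28.5% ± 11.7 against 28.5% ± 2.29, from 15.8% in the superior sample of mouse 2 to 47.1% in the inferior sample of the same mouse. Of the 14 feature tests, 0 passed the adjusted exact permutation test and 5 had an unadjusted p under 0.05. These 5 were at 0.03125, the smallest p that 6 samples can give. The 2 samples of a mouse are not independent animals. With the samples of each mouse summed, all 5 had an exact sign permutation p of 0.25, the smallest that 3 mice can give. An adjusted p under 0.05 would need most of the 14 tests at that value, so the adjusted test could hardly call a feature. For TRBV15 3 of 7 and for TRBV26 2 of 7 features went 1 way in 6 of 6 samples, where 27 of 119 features of the 17 V segments did (22.7%).

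**Figure D3:**
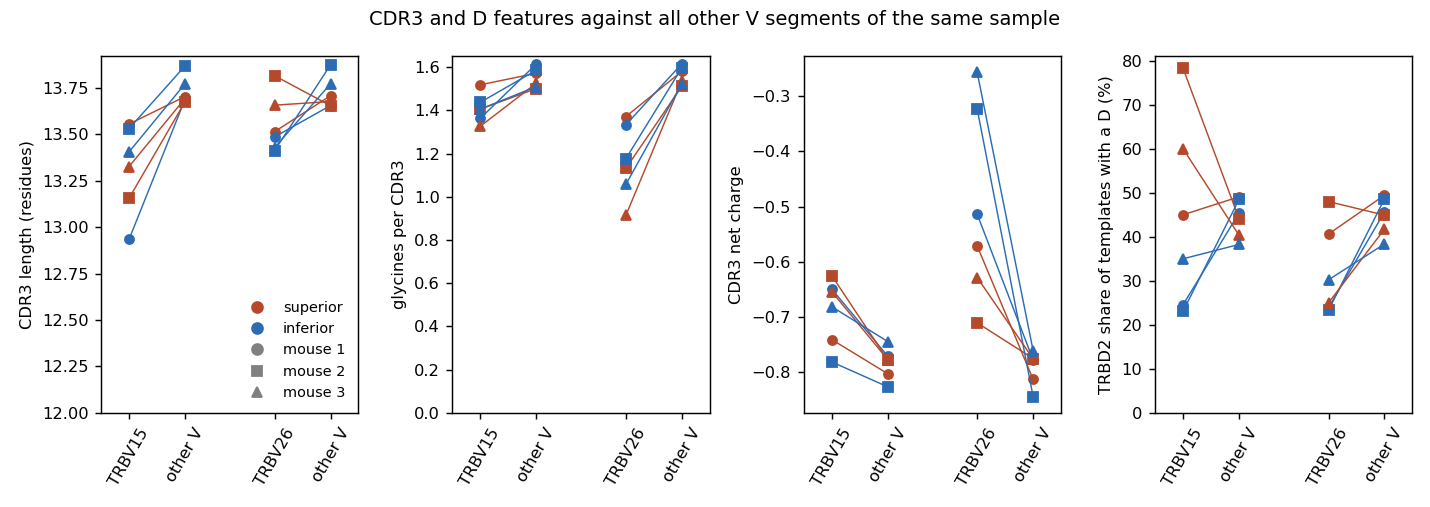
Mean CDR3 length, glycines per CDR3, CDR3 net charge and TRBD2 share (vertical axes) of TRBV15 and of TRBV26, each joined by a line to all other V segments of the same sample; colour is the group and shape the mouse. The length axis starts above 0. All 6 lines rise from TRBV15 in length and from each segment in glycines, and all 6 fall from each segment in net charge.

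Superior and inferior samples were also compared within each segment, a comparison chosen after the data were seen. The widest gap in the D segment was that of TRBV15, practically level with TRBV12-1. TRBD2 made up 45.0%, 78.3% and 60% of TRBV15 templates with a resolved D segment in the superior samples of mice 1 to 3 (9 of 20, 18 of 23 and 24 of 40 templates) and 24.6%, 23.1% and 35.0% in the inferior samples (14 of 57, 6 of 26 and 21 of 60). The groups did not overlap, and the superior sample was higher in 3 of 3 mice, with means of 61.1% ± 16.7 and 27.5% ± 6.50 (SD, n = 3 each). The two-sided exact permutation p was 0.1, the smallest that 3 against 3 samples can give. Here and below, superior and inferior samples were permuted without their pairing by mouse. Paired over 3 mice, the smallest exact p would be 0.25. Over all V segments but TRBV15 the means were 44.5% ± 4.38 and 44.0% ± 5.24. Single segments had similar gaps: TRBV12-1 had means of 69.7% and 36.1% (difference 33.5 points, 3 of 3 mice, no overlap), and TRBV13-1 of 57.3% and 28.2% (29.1 points, 3 of 3 mice, with overlap). TRBV15 lay above the other segments in the superior samples of mice 2 and 3 and below them in the other 4 samples. The gap was smaller when large clones counted less. With each clonotype counted once the means were 52.3% and 34.1%, without overlap, and with each listed rearrangement counted once they were 51.5% and 35.6%, with overlap. Without clones of 5 or more templates they were 47.3% ± 18.8 and 28.2% ± 9.24 (n = 3, exact p = 0.3), and the order turned in mouse 1, at 26.7% (4 of 15) and 31.8% (7 of 22). Within the TRBJ2 cluster they were 70.9% ± 20.1 and 40.0% ± 12.2 (n = 3, exact p = 0.2). Without mouse 2 the difference of 33.5 points became 22.7.

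The J use of TRBV15 moved with this D use, and its part in the D difference was not tested beyond the values within the TRBJ2 cluster. The superior mean of TRBJ2-7 was 49.0% ± 6.35 and the inferior mean 37.0% ± 6.35 (n = 3 each, exact permutation p = 0.1) and was higher in the superior sample of each mouse, whereas the highest inferior value, 44.1% in mouse 2, lay just under the lowest superior value, 44.4% in mouse 1. The TRBJ1 cluster averaged 20.1% ± 5.10 and 32.0% ± 4.18 (n = 3 each, exact permutation p = 0.1), from 14.8% to 25.0% in superior and from 27.3% to 35.3% in inferior samples. With each clonotype counted once both pairs of groups overlapped. The means were then 34.5% and 29.3% for TRBJ2-7 and 24.9% and 29.7% for the TRBJ1 cluster. Over all V segments but TRBV15 the template means of TRBJ2-7 were 33.2% and 31.1%, also higher in the superior sample of each mouse. TRBV16 went the other way, at 30.3% and 48.4%. Wider TRBJ1 gaps were found in TRBV29, at 24.2% and 48.8% without overlap, and in TRBV12-1, at 20.8% and 48.3% with overlap. In TRBV16 the TRBJ1 means were 25.7% and 21.4%. Hydrophobic residues at position 6 or 7 of TRBV15 averaged 24.3% ± 3.93 and 20% ± 1.56 without overlap (n = 3 each, exact permutation p = 0.1), and the groups overlapped with each clonotype counted once. In TRBV26 the superior samples had longer CDR3s, 13.7 ± 0.151 against 13.4 ± 0.0390 residues, and a more negative net charge, -0.637 ± 0.0699 against -0.365 ± 0.133, both without overlap (n = 3 each, exact permutation p = 0.1). Both overlapped when each clonotype was counted once. Over 9 features, 4 of TRBV15 and 2 of TRBV26 did not overlap between the groups, where 14 of 153 features of the 17 V segments did not (9.15%). The 9 features of a segment come from the same templates and are not independent.

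**Figure D4:**
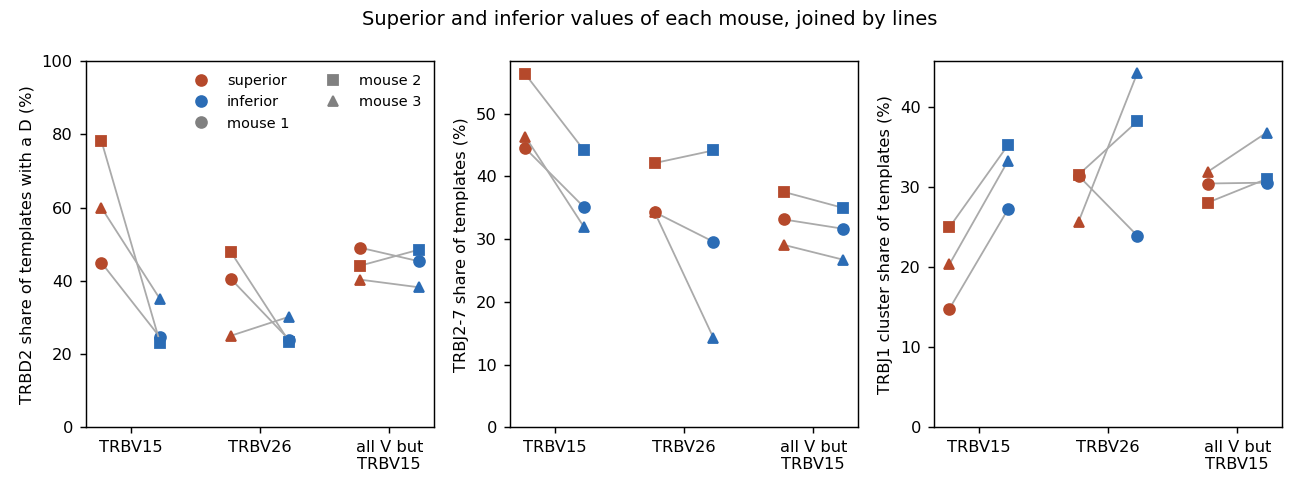
TRBD2 share of templates with a D segment, TRBJ2-7 share and TRBJ1 cluster share (%, vertical axes) in the superior (left point) and inferior (right point) sample of each mouse, for TRBV15, TRBV26 and all V segments but TRBV15; lines join the samples of a mouse. All 3 TRBV15 lines fall for TRBD2 and TRBJ2-7 and rise for the TRBJ1 cluster.

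Mean clone sizes of both segments differed from the other segments by less than their spread, and few clones were found in both samples of a mouse. In mice 1 and 2, but not in mouse 3, TRBV15 had more of its templates in clones of 10 or more. Templates per clonotype averaged 1.79 ± 0.313 (SD, n = 6) in TRBV15 and 1.78 ± 0.138 in TRBV26, against 1.76 ± 0.111 in the segments other than TRBV15 (exact permutation p = 0.812 and 0.781, adjusted p = 1 for both). Per listed rearrangement TRBV26 was higher in 6 of 6 samples, by 0.144 (exact permutation p = 0.03125, adjusted p = 0.0875). Counted per mouse, 9 of 157 TRBV15 clones (5.73%, 95% Wilson interval 3.04 to 10.5) and 6 of 153 TRBV26 clones (3.92%, 1.81 to 8.29) occurred in both samples, against 142 of 3506 clones of the others (4.05%, 3.45 to 4.75). Intervals and limits here cover counting error only. Clones of 5 or more templates in a mouse numbered 8 in TRBV15 and 7 in TRBV26. They held 25.3% of TRBV15 and 16.5% of TRBV26 templates, where the 161 such clones of the other segments held 17.4%. Clones of 10 or more templates held 16.7% of TRBV15 templates (4 of 157 clones), none of TRBV26 and 4.19% of the others (18 of 3506 clones). By mouse the TRBV15 share was 33.7% in mouse 1 (3 clones), 21.2% in mouse 2 (1 clone) and 0% in mouse 3. The others had 5.04%, 7.03% and 1.70%. Of the clones of 5 or more templates, 4 of 8 (50.0%, 21.5 to 78.5) and 3 of 7 (42.9%, 15.8 to 75.0) were found in both samples, against 49 of 161 (30.4%, 23.9 to 37.9), intervals that overlap. The result depended on the size limit. At 3 or more templates, 9 of 21 TRBV15 clones were in both samples (42.9%, 24.5 to 63.5), above the 98 of 675 of the others (14.5%, 12.1 to 17.4) with no overlap of the intervals, and 3 of 26 TRBV26 clones were (11.5%, 4.0 to 29.0). At 10 or more templates, 2 of 4 TRBV15 clones were (50.0%, 15 to 85.0), below 14 of 18 of the others (77.8%, 54.8 to 91.0) with overlap. Mouse 1 held 5 of the 8 TRBV15 clones, and without it 3 TRBV15 and 3 TRBV26 clones were left.

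The largest TRBV15 clone, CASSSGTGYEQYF with TRBD2 and TRBJ2-7, had 11 templates in the superior sample of mouse 2 (1.0%, 0.562 to 1.79) and 3 in the inferior sample (0.326%), a difference that did not pass Fisher's exact test (adjusted p = 0.148). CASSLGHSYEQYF with TRBD1 and TRBJ2-7 had 13 templates in the inferior sample of mouse 1 (0.949%, 0.555 to 1.62) and 0 among the 667 superior templates, a limit of 0.450% at 3 counts (Fisher's exact adjusted p = 0.0390). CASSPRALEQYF with TRBD2 and TRBJ2-7 had 7 in the superior sample of mouse 3 (0.616%, 0.299 to 1.27) and 0 among 1855 inferior templates, a limit of 0.162% (Fisher's exact adjusted p = 0.0319). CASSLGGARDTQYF with TRBJ2-5 was spread over both samples of mouse 1, with 5 and 7 templates. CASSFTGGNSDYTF with TRBJ1-2 had 1 and 6 in mouse 2, and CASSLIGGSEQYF with TRBJ2-7 had 3 and 3 in mouse 1. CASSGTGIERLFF with TRBJ1-4 had 0 and 10 in mouse 1 (Fisher's exact adjusted p = 0.129), and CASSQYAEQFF with TRBJ2-1 had 0 and 5. By D segment, the TRBD2 clones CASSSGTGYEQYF and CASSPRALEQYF had most or all templates in a superior sample, and the TRBD2 clone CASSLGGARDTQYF was on both sides. The 4 TRBD1 clones had most or all templates in an inferior sample. All of these but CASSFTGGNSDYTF came from mouse 1, where the inferior sample held 1370 templates and the superior 667. Of the 4, only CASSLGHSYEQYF passed Fisher's exact test.

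In TRBV26 the clones found on 1 side included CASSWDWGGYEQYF with TRBJ2-7, with 7 templates in the superior sample of mouse 1 (1.05%, 0.509 to 2.15) and 0 among 1370 inferior templates, a limit of 0.219% (Fisher's exact adjusted p = 0.00988). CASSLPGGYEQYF with TRBJ2-7 had 8 in the superior sample of mouse 2 (0.731%, 0.371 to 1.44) and 0 among 920 inferior templates, a limit of 0.326% (Fisher's exact adjusted p = 0.0414). These carried TRBD2. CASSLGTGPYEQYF with TRBD1 and TRBJ2-7 had 0 and 7 in mouse 1, and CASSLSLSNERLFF with TRBJ1-4 had 0 and 5 in mouse 3, neither past the test (adjusted p = 0.236 and 0.199, Fisher's exact). The clone of 15 residues with TRBD1 and TRBJ1-3 had 2 and 6 in mouse 1, and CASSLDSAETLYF with TRBJ2-3 had 1 and 6 in mouse 3. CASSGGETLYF with TRBD2 and TRBJ2-3 had 1 and 4 in mouse 1, so a TRBD2 clone also had most templates in an inferior sample. The D segment of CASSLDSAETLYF and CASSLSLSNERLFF was unresolved. Fisher's exact test compares the libraries of 1 animal and not the conditions. In mouse 1 it called 2 of 9 clones of these segments, where 9 of 50 clones of all segments were called (18.0%). Mouse 2 had 1 of 3 called against 12 of 53 overall (22.6%). Mouse 3 had 1 of 3 against 18 of 73 (24.7%).

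**Figure D5:**
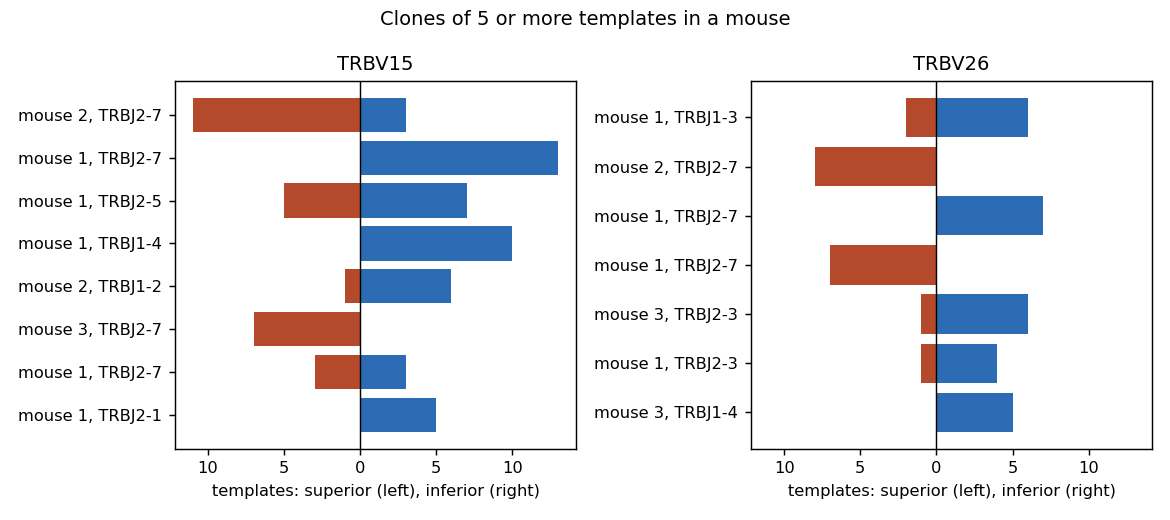
Templates of each TRBV15 and TRBV26 clone with 5 or more templates in a mouse, in the superior sample (bars to the left) and in the inferior sample (bars to the right); each row names the mouse and the J segment. Of the 8 TRBV15 clones 4 have bars on both sides, and of the 7 TRBV26 clones 3 do.

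By amino acids, 3 of 153 TRBV15 clonotypes (1.96%, 95% Wilson interval 0.669 to 5.61) and 2 of 151 TRBV26 clonotypes (1.32%, 0.364 to 4.70) were found in 2 mice, against 25 of 3447 of the others (0.725%, 0.492 to 1.07), and the intervals overlapped. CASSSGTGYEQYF with TRBJ2-7 had 16 templates, of which mouse 2 had 14 and the superior sample of mouse 1 had 2, in 2 nucleotide forms. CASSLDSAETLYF, the TRBV26 clone with TRBJ2-3, had 8 templates in mice 1 and 3, also in 2 forms. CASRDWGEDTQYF (TRBV15, TRBJ2-5) had 3 templates in the inferior samples of mice 1 and 3 in 1 nucleotide form, and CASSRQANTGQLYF (TRBV26, TRBJ2-2) had 2 templates in mice 1 and 2. A TRBV15 clonotype of 15 residues with TRBJ2-1 had 3 templates in the superior samples of mice 1 and 3.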

How the data were processed

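Per the labels' protocols, libraries were made from genomic DNA of sorted splenic cells with an immunoSEQ kit for mouse TCRB (survey). The deposited values are a raw count for each rearrangement, and the fraction deposited beside it is that count divided by the sample total. The build was mm10, per the submitters' processing notes. For alignment and clonotype calling, software and filters were not given in the sources used here.

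V share (segments of 10 or more templates) and J use (V segments of 100 or more templates against all other V, J segments of 5 or more, sample as a block) were tested with edgeR 4.0.16 in R 4.3.3, using quasi-likelihood, a common dispersion, total templates as library size, and Benjamini-Hochberg adjustment at 0.05 over all tests. Features were compared with the other V segments of the sample by a two-sided exact sign permutation over 64 assignments and adjusted over 14 tests. Rearrangements whose CDR3 did not start with cysteine or did not match the translated bases (2 of TRBV15) were left out of CDR3 features. Clones of 5 or more templates were compared within a mouse with Fisher's exact test. Other steps used Python 3.11.15, pandas 2.3.3, numpy 2.4.6 and scipy 1.17.1, and DESeq2 1.42.0 was an alternative. All 29 V and 14 J names matched the RefSeq table. Named J segments were those past the threshold and the 3 most used, with TRBJ1-3 of TRBV15 added after its value was seen, and named clones those of 5 or more templates or in 2 or more mice. The edgeR step was tested on simulated data. The members and lists were chosen with earlier results of these data known.

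Samples were paired by the mouse number of their titles, as a number stands for 1 animal. Over 23 V segments, deviations from group means had correlations of 0.069 in mouse 1, 0.68 in mouse 2 and -0.35 in mouse 3.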

Additional observations from a re-analysis of the deposited data

How the results depend on the processing

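No adjusted call for TRBV15 or TRBV26 in V share, J use or features was gained or lost under any alternative run, and none passed in the first place. Of 264 values recomputed, 226 stayed within the limit set for their kind, 30 changed sign and 8 moved by more than their limit. The cause was not tested unless named. For ratios and feature differences the limit was direction and side of the threshold, and for superior minus inferior differences direction alone. For counts of calls and clones it was a set fold, and for clone percentages the Wilson interval of the main value. As an adjusted feature test could hardly pass, the limit for features was in practice direction alone. Counts of calls in V share, and of J calls for TRBV15 and TRBV26, were 0 in every run. The number that stayed within the limit is therefore a weak measure of stability. With the mouse as a replicate block the log2 ratio of superior to inferior was -0.11 for TRBV15 and -0.13 for TRBV26, which changed no call. Leaving out 1 mouse gave -0.49 to 0.052 for TRBV15. Over all V segments the 3 J calls became 0 with each listed rearrangement or each clonotype counted once, 0 with DESeq2, 1 with TMM and 0 to 4 with a mouse left out, where fewer samples were tested. In TRBV15 the TRBJ2-5 ratio was -0.20 per listed rearrangement, -0.42 per clonotype, -0.078 with TMM and -0.65 to 0.44 with a mouse left out. The TRBJ2-1 ratio was -0.051 with TMM and -0.31 to 0.18 with a mouse left out, and the TRBV26 TRBJ2-7 ratio was 0.073 per clonotype and -0.20 to 0.077.

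The TRBD2 difference of TRBV15 from other V segments was -1.97 points per listed rearrangement, -1.86 per clonotype, -2.66 over 3 mice, -2.76 within J segments and -4.04 to 6.28 with a mouse left out. Its glycine difference was 0.0536 from position 6 on and 0.0843 also within J segments, and its charge difference -0.0241 from position 6 on, both alternatives added after seeing the data. Templates per clonotype differed by -0.135 within J segments and -0.0373 to 0.149 with a mouse left out in TRBV15, and by -0.0723 and -0.0324 to 0.0660 in TRBV26. In TRBV26 the share without a D segment differed by -3.05 to 7.32 with a mouse left out. Its hydrophobic share differed by -0.430 per listed rearrangement, -1.60 per clonotype, -1.29 over 3 mice and -1.61 to 2.85 with a mouse left out. Of clones of 3 or more templates 42.9% of TRBV15, 11.5% of TRBV26 and 14.5% of other V were found in both samples, and at 10 or more 50.0% of TRBV15 (4 clones) and 77.8% of other V, with no TRBV26 clone. With a mouse left out, 3 to 7 TRBV15 and 3 to 6 TRBV26 clones of 5 or more templates were left. With 3 mice the smallest exact p is 0.25, and with 4 samples 0.125, so neither can pass 0.05. At 27 to 77 templates per segment and sample, depth limits every share within a segment.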
